A study of Homo sapiens with 2 samples.

Results

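Keratins are the intermediate filament proteins of epithelial cells. They assemble as pairs of an acidic type I and a basic type II chain, and in the mammary duct the outer basal cells and the inner luminal cells are told apart by which pairs they make. KRT5 with KRT14 is the classic basal pair, KRT15 and KRT17 are further type I keratins of basal cells, and KRT6A with KRT16 is the pair made in stressed or wounded epithelium, while KRT8 with KRT18 is the pair of simple epithelium and KRT7 and KRT19 are made with it in luminal and ductal cells. Here the mRNAs of these 10 genes, 6 basal (KRT5, KRT6A, KRT14, KRT15, KRT16, KRT17) and 4 luminal (KRT7, KRT8, KRT18, KRT19), were examined for 5-methylcytosine (m5C). The cytosines were selected on their measured coverage: every cytosine with at least 10 counts on an exon of a member gene, on the strand of the gene, was kept.

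RNA bisulfite sequencing turns unmethylated cytosine into uracil, which is read as T, so that a cytosine still read as C counts as methylated. A cytosine that escaped the reaction for any other reason counts the same way. The methylation ratio of a site is its unconverted counts divided by all its counts, here in percent. The study compared poly(A)-selected RNA of MCF10A, a non-malignant human mammary epithelial line, with that of MDA-MB-468, a human breast cancer line of the basal-like, triple-negative kind, with no treatment or genetic change named. The labels give DMEM for both lines, whereas the methods of the study give DMEM/F12 with horse serum, EGF, hydrocortisone and insulin for MCF10A and RPMI with FBS for MDA-MB-468, so that medium and line cannot be told apart. There was 1 library per line, so no value below has a replicate. The tests compare these 2 libraries and not the lines, and the 95% Wilson intervals cover counting error only. Since 1 read can give counts at several cytosines, counts of neighbouring sites are not independent. Intervals pooled over sites are therefore too narrow, and neighbouring calls or differences can rest on the same reads.

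Of 1584002 cytosines kept in MCF10A, 1751 lay in the keratin genes, 901 basal and 850 luminal. Of 1271253 kept in MDA-MB-468, 2448 did, 1055 basal and 1393 luminal. The median coverage over all kept sites was 18 in both libraries, and 1.99% of all counts were unconverted in MCF10A against 1.81% in MDA-MB-468. Among the epithelial markers, CLDN7 and EGFR had kept sites in both libraries, but EPCAM and CDH1 had 175 and 108 in MDA-MB-468 and none in MCF10A, where their deposited sites reached a coverage of 5 and 6. VIM, the intermediate filament of mesenchymal cells, had 486 kept sites at a mean coverage of 699 in MCF10A and none in MDA-MB-468, and DCN, a fibroblast proteoglycan, had 156 and none. The other mesenchymal, leukocyte and endothelial markers on the list had no kept site in either library, apart from COL1A1 (267) and CD74 (21) in MDA-MB-468, and PECAM1 was not in the annotation used. By kept sites, MCF10A thus had 2 of 4 epithelial and 2 of 5 mesenchymal markers, and MDA-MB-468 had 4 and 1.

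The amount of each keratin mRNA was among the limits on how well its methylation could be read. Levels are given as deposited counts per exon cytosine, per 1000000 nuclear exonic counts of the library, which adjusts for the length of genes. Exon cytosines with no deposited site are included in the divisor, and their share did not follow the level alone. KRT17 in MDA-MB-468, at a level of 4.32, had 303 deposited sites for 466 exon cytosines. KRT5 in MCF10A, at 0.442, had 478 for 598. Levels of different genes are therefore only roughly comparable. Sites with fewer than 5 counts are not in the tables, so that low levels are understated. Fewer cells making a keratin and less of its RNA per cell cannot be told apart in such bulk RNA. Because the members were kept by coverage, these levels are a description with no test.

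Every luminal keratin stood higher in MDA-MB-468. KRT19, the smallest keratin, showed the widest gap, with a level of 0.0728 in MCF10A against 30.6 in MDA-MB-468, a ratio of 421. KRT18 stood at 0.205 and 3.11, and its partner KRT8 at 0.335 and 4.05, both over 10 times as high in MDA-MB-468. KRT7 was the most abundant member in MCF10A, at 5.26, and stood at 12.5 in MDA-MB-468.

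The basal keratins did not move as a group. KRT15 stood at 0.0756 in MCF10A against 0.984 in MDA-MB-468, and KRT17 at 0.339 and 4.32. KRT5 went the other way, with 0.442 in MCF10A against 0.237 in MDA-MB-468, and so did KRT6A, with 0.118 and 0.00299. Their partners were low or unseen in 1 or both libraries. KRT14, the partner of KRT5, had 31 deposited sites in MCF10A, none above a coverage of 9, and none in MDA-MB-468, while KRT16, the partner of KRT6A, had no site in MCF10A and stood at 0.141 in MDA-MB-468. KRT14 therefore gave no kept site in either library, KRT16 none in MCF10A and KRT6A none in MDA-MB-468, and the other 7 genes had 1325 sites kept in both.

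**Figure D1:**
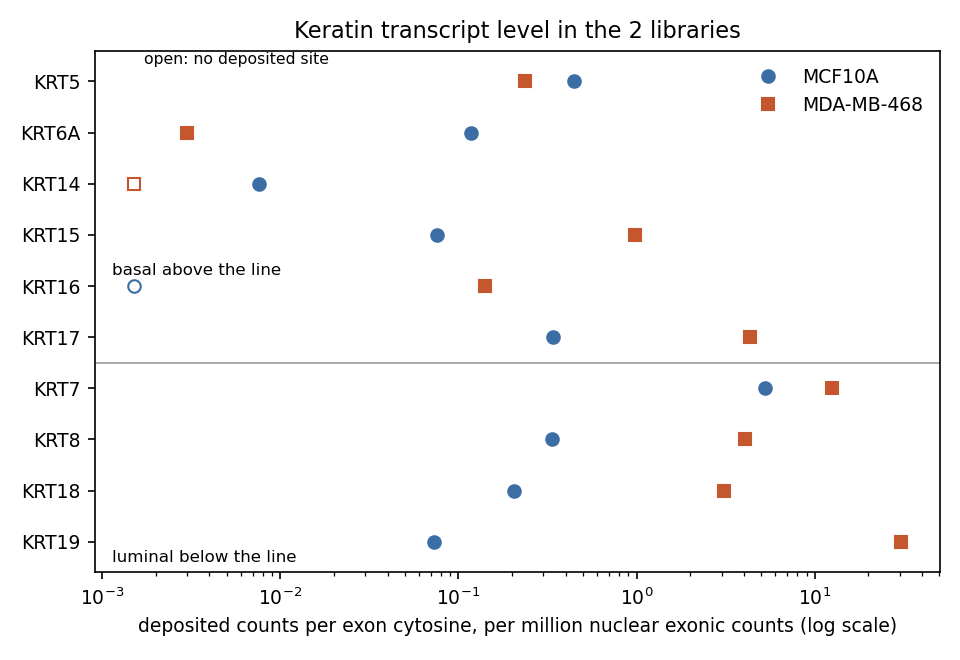
Level of each keratin mRNA (x axis, log scale, deposited counts per exon cytosine per 1000000 nuclear exonic counts) in MCF10A (circles) and MDA-MB-468 (squares), 1 library each, with basal genes above the grey line. All 4 luminal genes lie further right in MDA-MB-468, KRT19 by a ratio of 421, and KRT5, KRT6A and KRT14 lie further right in MCF10A; open symbols mark a gene with no deposited site.

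Sequence that recurs in the genome bears on where a read is placed. With all C changed to T, as in a converted read, 72.0% of the 50-base windows within exons of KRT8 and 72.2% of those of KRT18 also occurred elsewhere in the genome. The share was 53.8% for KRT6A, 49.4% for KRT17, 47.5% for KRT14 and 46.1% for KRT16, and below 10% for KRT5 (9.55%), KRT19 (6.93%), KRT15 (1.56%) and KRT7 (0.918%). The whole genome was searched, so these shares do not tell whether the other copies lie in keratin genes of the set. In protein sequence KRT18 was only 45.3% to 47.1% identical to the other type I members. Every keratin cytosine called as m5C below lay in at least 1 window that occurred once. The read length is not given in the sources used here, so how many counts were open to misplacement was not tested.

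The pooled methylation ratio of a gene is the sum of its unconverted counts over the sum of all its counts at kept sites. In MDA-MB-468 the 8 measurable keratins lay close together, between 1.17% for KRT8 and 1.58% for KRT15, around the median of 1.45% over 6431 protein-coding genes with at least 20 kept sites. Basal keratins together stood at 1.45% (95% Wilson interval 1.38 to 1.52) and luminal keratins at 1.37% (1.35 to 1.39).

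In MCF10A the keratins were spread far more widely. KRT6A, at 1.16%, KRT17, at 1.57%, KRT5, at 1.64%, and KRT7, at 1.82%, lay at or below the median of 1.79% over 7266 genes or just above it. KRT8 stood at 4.29% (3.92 to 4.69) and its partner KRT18 at 6.14% (5.50 to 6.87), values that 489 and 175 genes exceeded. KRT8 thus lay below the 95th percentile of the genes, 4.753%. The basal KRT15 reached 9.15% (7.72 to 10.8), a value that 61 of the 7266 genes exceeded. KRT19 stood at 63.9% (59.5 to 68.0), exceeded by 4 genes. The 4 members with the highest ratios in MCF10A were therefore 1 basal and 3 luminal keratins, with levels 13.0 (KRT15), 12.1 (KRT8), 15.2 (KRT18) and 421 (KRT19) times as high in MDA-MB-468. KRT17, with a level 12.8 times as high there, had no raised ratio.

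**Figure D2:**
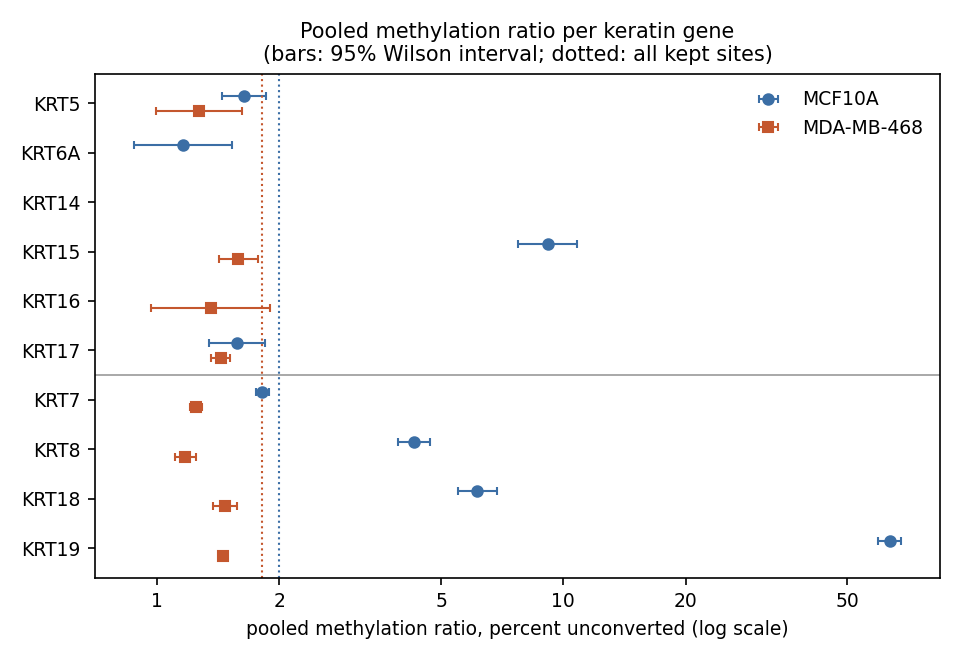
Pooled methylation ratio (x axis, log scale, percent of counts unconverted) of each keratin gene with kept sites in MCF10A (circles) and MDA-MB-468 (squares), with 95% Wilson intervals, and the ratio over all kept sites of each library as dotted lines. In MDA-MB-468 all genes lie between 1.17% and 1.58%, while in MCF10A KRT8, KRT18, KRT15 and KRT19 lie at 4.29%, 6.14%, 9.15% and 63.9%.

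Summed over genes, basal keratins stood at 1.89% (1.74 to 2.05) and luminal keratins at 2.27% (2.20 to 2.34) in MCF10A. Without KRT19 the luminal value was 2.09% (2.03 to 2.16), and it rested on KRT7, which supplied 155047 of the 170486 remaining counts. Weighting each site equally gave 6.77% for the luminal sites of MCF10A, and 2.68% for KRT7, 4.54% for KRT8, 7.27% for KRT18 and 63.7% for KRT19. At the coverage threshold, keratin sites with exactly 10 counts had a ratio of 15.7% in MCF10A (84 sites) and those with 9 counts, just outside it, 13.8% (118 sites). The same values in MDA-MB-468 were 1.58% (76 sites) and 1.47% (68 sites).

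Within MCF10A the ratio was lower at higher coverage. Leaving out KRT19, keratin sites with 10 to 19 counts had a pooled ratio of 3.95%, those with 20 to 49 counts 3.08%, those with 50 to 99 counts 2.76% and those with at least 100 counts 1.79%. These classes also differed in their genes. KRT7, at 1.82%, supplied 155047 of the 200651 counts, while KRT15, at 9.15%, had no site above 22 counts. Coverage and gene were thus not separated. All nuclear exonic sites of the library fell over the same classes from 2.37% to 1.61%. In MDA-MB-468 the keratin values were 2.20%, 1.54%, 1.75% and 1.27%. The part of coverage in the ratios of single genes was not tested.

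A site was called m5C when its ratio exceeded the ratio over all kept sites of its library (one-sided Fisher's exact test, Benjamini-Hochberg adjusted p below 0.05 over all kept sites). In MCF10A 68 keratin sites were called, 3.88% of those kept, against 0.96% of all kept sites of the library. KRT19 supplied 40 of them, and without it 28 remained, 1.64% of the sites. In MDA-MB-468 25 keratin sites were called, 1.02% against 0.84% of all kept sites, and without the 15 of KRT19 there were 10, or 0.489%. By group, 6 basal sites (0.666%, 0.306 to 1.45) and 62 luminal sites (7.29%) were called in MCF10A, so that the basal share was not separable from that of the library. In MDA-MB-468 2 basal sites (0.190%, 0.0520 to 0.689) and 23 luminal sites (1.65%) were called, a basal share numerically lower than that of the library. These intervals treat sites as independent, which calls that lie close together are not. They are therefore too narrow, and the difference of a group from the library was not tested. Without KRT19 the luminal counts were 22 (2.72%) and 8 (0.807%). With the reads at each shared site thinned to the lower of its 2 coverages, the median over 20 draws was 1 basal and 1 luminal call in MDA-MB-468. KRT19 then had a median of 0 calls in MDA-MB-468. Its 40 calls in MCF10A were not probed, because MCF10A had the lower coverage at every shared KRT19 site and kept its counts unchanged. That setting also keeps shared sites alone, 507 of the 1055 basal and 818 of the 1393 luminal sites. Without the sites that had a mean predicted pairing probability over 0.5, the MCF10A library had 1 basal and 20 luminal calls and the MDA-MB-468 library 2 and 3.

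The called sites were all in coding sequence. Of the kept keratin sites, 1517 from MCF10A and 1935 from MDA-MB-468 were coding, while the 32 and 63 sites in 5′ UTRs and the 172 and 215 sites in 3′ UTRs gave no call. Coding sequence also held most of the counts, 192585 of 201149 from MCF10A and 963150 of 1035503 from MDA-MB-468, and the few UTR sites left wide intervals. In MCF10A the share called in 3′ UTRs had an upper Wilson bound of 2.19%, against 4.48% (3.55 to 5.64) of coding sites, but for luminal genes without KRT19 the bound was 4.42%, against 3.29% (2.19 to 4.94) of coding sites, so that without KRT19 a difference between luminal 3′ UTRs and coding sequence was not detectable at this depth. Calls also lay close to each other, so that these intervals, which treat sites as independent, are too narrow. In MCF10A 55 of 68 had another called site within 10 bases, or 17 of 28 without KRT19, and in MDA-MB-468 15 of 25 did.

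At a coverage of at least 20, the 5 called sites of highest ratio in MCF10A lay in KRT18 (chr12:53343128 at 27.6%, 53343125 at 21.9% and 53343109 at 19.2%) and KRT8 (chr12:53298695 at 20% and 53298691 at 19.4%). Those of MDA-MB-468 lay in KRT17 (chr17:39776999 at 25.9% and 39777000 at 6.34%) and KRT18 (chr12:53343128 at 7.56%, 53343143 at 7.32% and 53343137 at 6.70%). KRT17 chr17:39776999 was the only keratin site above 20% among the called sites of MDA-MB-468.

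Pooled over genes, a larger share of called than of uncalled sites lay in predicted pairs. In MDA-MB-468 80% of all called keratin sites had a mean predicted pairing probability over 0.5 at 70 degrees, against 61.1% of uncalled sites, and in KRT19 13 of its 15 calls did (86.7% against 64.5%). In MCF10A the shares were 69.1% and 60.8%, but the median probabilities were nearly equal, 0.6075 for called and 0.6002 for uncalled sites. In KRT19 of MCF10A 65.0% of the 40 calls were over 0.5, against 100% of its 2 uncalled sites. Outside KRT19, 75.0% of the called sites of MCF10A and 70% of those of MDA-MB-468 were paired in this sense, against 60.7% and 60.5% of the uncalled sites. These last shares rest on 28 and 10 called sites, and the part of pairing in the calls was not tested.

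Among the basal keratins, KRT17 carried the site with the strongest evidence. Its cytosine at chr17:39776999 (GRCh37, minus strand, exon 6, coding, first base of codon 365) was unconverted in 16 of 90 counts in MCF10A, or 17.8% (11.3 to 26.9, adjusted p = 9.62e-09 by Fisher's exact test), and in 223 of 860 in MDA-MB-468, or 25.9% (23.1 to 28.96, adjusted p = 1.32e-177). Both libraries therefore showed it, and the 2 values did not differ past the test between libraries, in which no basal site passed. The next base upstream, chr17:39777000, stood at 6.34% of 820 counts in MDA-MB-468, where it was called (adjusted p = 1.01e-11 by Fisher's exact test), and at 3.66% of 82 in MCF10A, where it was not. The rest of KRT17 gave no call, and its pooled ratio was below that of all kept sites in both libraries.

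The codon of this cytosine is conserved in every type I keratin of the set, which allowed the same base to be read in its paralogs. The sequences are shown to set the KRT17 site beside its counterparts, 21 bases each from GRCh37, 5′ to 3′ on the strand of the gene, with the aligned cytosine in capitals:
KRT17: gcagcagaacCaggaatacaa
KRT14: gcagcagaacCaggagtacaa
KRT15: ggctcagaacCaggagtacaa
KRT16: gcagcagagcCaggagtacca
KRT18: gcgccaggccCaggagtatga
KRT19: gcggcagaatCaggagtacca
KRT14 matched KRT17 at 20 of 21 bases, KRT16 at 18, KRT15 and KRT19 at 17 and KRT18 at 14. In MDA-MB-468 the aligned cytosine was unconverted in 48 of 3431 counts in KRT19 (1.40%, 1.06 to 1.85), 3 of 161 in KRT18 (1.86%), 2 of 109 in KRT15 (1.84%) and 0 of 30 in KRT16, and none of these was called. In MCF10A it stood at 1 of 16 in KRT15 and 0 of 17 in KRT18. KRT14 had no kept count there. In MDA-MB-468 the interval of KRT17 thus lay above those of all 4 paralogs.

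**Figure D3:**
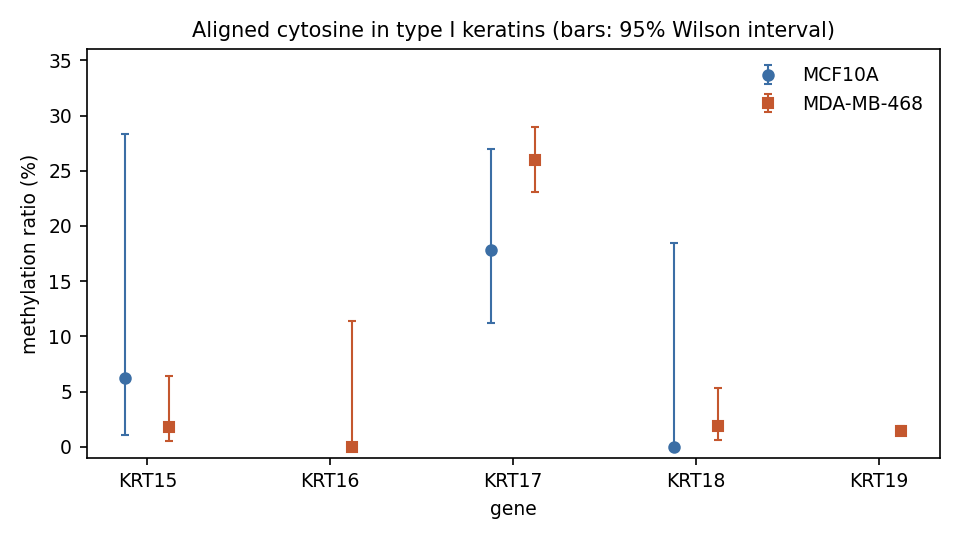
Methylation ratio (y axis, percent) of the cytosine aligned with the KRT17 site in 5 type I keratins, in MCF10A (circles) and MDA-MB-468 (squares), with 95% Wilson intervals that cover counting error only. KRT17 stands at 17.8% and 25.9%, and the other genes at 6.25% or less, on 16 or 17 counts in MCF10A for KRT15 and KRT18.

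The other 5 basal calls were all in KRT15 in MCF10A, at a coverage of 15 to 18, with 4 unconverted counts each and adjusted p between 0.0208 and 0.0412. A group of 4 of them lay within 6 bases in exon 6, in codons 373 to 375, and whether they rest on the same reads cannot be told from site counts. In MDA-MB-468 the same 4 cytosines had between 110 and 116 counts and stood between 0% and 2.73%. KRT5 (395 and 174 kept sites), KRT6A (173 in MCF10A) and KRT16 (122 in MDA-MB-468) had no called site.

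KRT7, the type II keratin with the deepest coverage in MCF10A (median 302), had 9 called sites there and 2 in MDA-MB-468, all between 4.01% and 9.30%. The site called in both was chr12:52635378 (plus strand, exon 5, coding), base 3 of codon 272, at 16 of 193 counts (8.29%, adjusted p = 0.000348) and 26 of 649 (4.01%, adjusted p = 0.0247, Fisher's exact test). The aligned base of KRT8 was also a cytosine, at 4.50% of 111 and 1.79% of 672 counts, and was not called. KRT7 is given here in 30 bases, chr12:52635363-52635392, to show the called base in capitals within a stretch with other uncalled cytosines:
KRT7: gtatgaggagatggcCaaatgcagccgggc

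KRT18, the type I partner of KRT8, had 9 called sites in MCF10A but 3 in MDA-MB-468, and 8 of the 9 and all 3 lay in a stretch of exon 1 near the start of the coding sequence. The cytosine at chr12:53343128 stood at 8 of 29 counts in MCF10A (27.6%, adjusted p = 1.51e-05) and 9 of 119 in MDA-MB-468 (7.56%, adjusted p = 0.041, Fisher's exact test). That at chr12:53343143 stood at 8 of 43 (18.6%, adjusted p = 0.000327) and 15 of 205 (7.32%, adjusted p = 0.00112, by the same exact test). In this stretch MCF10A had 6 further calls, none of them called in MDA-MB-468, whose remaining call was chr12:53343137. Predicted pairing was above 0.8 at each called base of the stretch except chr12:53343119, called in MCF10A, where it was 0.0519.

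KRT8 had 4 called sites in MCF10A against 3 in MDA-MB-468, all in exon 1, and none was shared. Those of MCF10A reached 20% (5 of 25 counts at chr12:53298695), and those of MDA-MB-468, on 229 to 383 counts, lay between 4.76% and 6.01%. In MDA-MB-468 the pooled ratio of KRT8 was the lowest of all members.

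KRT19 differed from every other member. In MCF10A 42 of its 231 deposited sites had at least 10 counts, none more than 17, and 40 of the 42 were called, with ratios between 38.5% and 91.7%. In MDA-MB-468 401 sites were kept at a median coverage of 889, and the gene as a whole stood at 1.45% (1.42 to 1.48). The kept sites of MCF10A lay in 5 short stretches of coding sequence, where 1 read can count at several sites. All 5 stretches had high ratios but not all equally so. The 5 sites in exon 1 stood at 90.4%, 13 in exon 4 at 73.2% and 2 in exon 5 at 81.8%, while 10 and 12 sites in exon 6 stood at 42.2% and 57.3%. Over the same positions MDA-MB-468 had 1.63%, 1.33%, 0.889%, 2.23% and 0.920%. The stretch that was lowest in MCF10A was the highest in MDA-MB-468, and the only one with calls there.

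That stretch holds the 4 sites called in both libraries, chr17:39680195, 39680198, 39680199 and 39680200 in exon 6. In MCF10A they had 10 to 14 counts and stood between 42.9% and 60.0%. In MDA-MB-468 they had 3526 to 5157 counts and stood at 3.74% (3.26 to 4.30), 4.74% (4.13 to 5.43), 4.79% (4.14 to 5.55) and 4.24% (3.65 to 4.92), with adjusted p between 3.84e-17 and 5.7e-29. They fall in chr17:39680184-39680213 (minus strand), shown with the called bases of each library in capitals, and below it the KRT15 stretch chr17:39671837-39671866 with its 4 grouped calls in MCF10A, since both hold the letters gcccagctg:
KRT19, MCF10A: gcgcgctttggagCCCagCtggCgCatatC
KRT19, MDA-MB-468: gcgcgctttggagCCCagCtggcgcatatc
KRT15, MCF10A: ggtggcctggaggCCCagCtgagtgagctc
KRT15, MDA-MB-468: ggtggcctggaggcccagctgagtgagctc
The 2 stretches are not at aligned codons. In the alignment of type I keratins the KRT15 bases lie instead beside codons 347 to 349 of KRT19. There 3 aligned codon bases were called in both genes, in KRT15 in the MCF10A library and in KRT19 in the other. The KRT19 bases, chr17:39680153, 39680156 and 39680157, stood at 3.99%, 3.48% and 2.80% of 5715 to 6119 counts in MDA-MB-468. In MCF10A they were mostly converted, with 1 of 8, 1 of 9 and 1 of 8 counts unconverted, and were not tested at that coverage. Over the 85 called keratin positions, these 3 neighbouring bases were the aligned positions called in more than 1 gene. At some of the 85 no paralog had a kept cytosine at the aligned base, so that a second call was not possible there.

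KRT19 also stood out on the other strand. Counts on the strand opposite to KRT19 covered 146 cytosines at a coverage of 5 to 13, of which 1022 of 1032 counts were unconverted (99.03%), and all 146 lay over exons and none over introns. On the strand of the gene the MCF10A table listed no site in an intron. MDA-MB-468 had the opposite-strand counts as well, 504 of 509 unconverted at 84 cytosines (99.02%), again all over exons, while its sense introns held 671 sites at 4.86%. Per site, the unconverted counts on the sense strand of exons averaged 5.63 in MCF10A, of a mean coverage of 7.76, and 18.8 in MDA-MB-468. Because sites under 5 counts are not in the tables, opposite-strand counts are seen only in part and were not compared between the libraries. KRT7 had such counts too, 606 of 621 (97.6%) in MCF10A against 218 of 224 (97.3%) in MDA-MB-468, and KRT8 124 of 128 (96.9%) in MCF10A. KRT5, KRT6A, KRT14, KRT15, KRT16 and KRT17 had none, and part of the strand opposite to KRT18 carries exons of KRT8 transcripts and was not counted. The part of these counts in the KRT19 result was not tested.

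**Figure D4:**
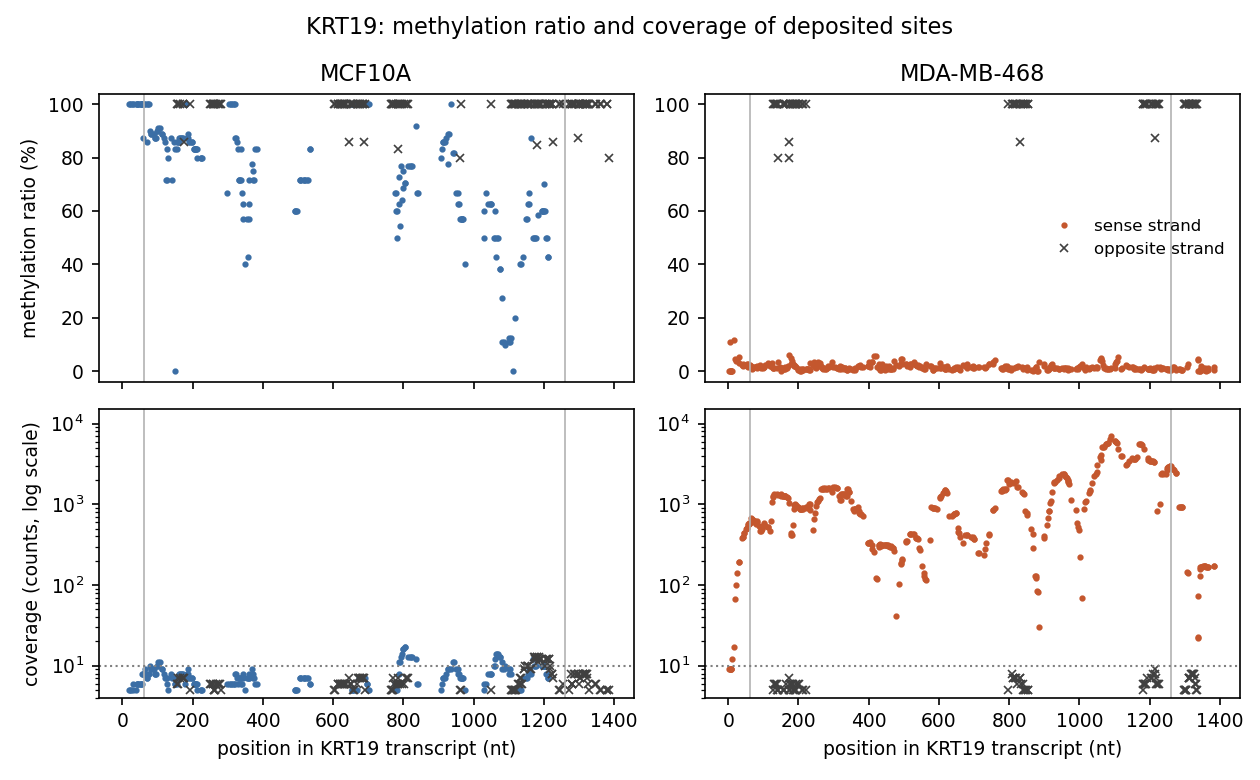
Methylation ratio (top, percent) and coverage (bottom, counts, log scale) of all deposited cytosines along the KRT19 transcript (x axis, nucleotides) in MCF10A (left) and MDA-MB-468 (right), on the sense strand (dots) and the opposite strand (crosses). Grey lines bound the coding sequence and the dotted line is the coverage minimum of 10. Sense sites of MCF10A reach at most 17 counts at a pooled 72.5%, with some sites low, such as chr17:39680148 at 0 of 5 counts. Those of MDA-MB-468 reach 7007 counts at a pooled 1.45%, and opposite-strand sites lie near 100% in both.

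Between the libraries, 41 of the 1325 shared keratin sites differed (two-sided Fisher's exact test, adjusted p below 0.05 over all 812729 shared sites), against 0.0893% of all shared sites. All 41 were lower in MDA-MB-468, where 0.0691% of all shared sites were lower and 0.0202% higher. KRT19 held 40 of them, which is 5.51% of the 726 differing sites of the whole table. The 5 with the largest difference were chr17:39680679 in exon 4 (11 of 12 counts against 21 of 1428, adjusted p = 1.53e-14 by Fisher's exact test) and chr17:39684455, 39684458, 39684459 and 39684462 in exon 1, with 90.0% or 90.9% against 1.11% to 2.23%. The remaining site was chr12:53298667 in exon 1 of KRT8, with 7 of 70 counts (10%) in MCF10A against 3 of 531 (0.565%) in MDA-MB-468 (adjusted p = 0.0248 by Fisher's exact test). Without KRT19, 1 of 1283 shared keratin sites differed. After thinning to the lower coverage the median over 20 draws was 0 luminal sites. Thinning left 10 to 17 counts a KRT19 site in each library, where a test adjusted over all shared sites has little power. Against the background of its library, KRT19 had 0 or 1 calls in MDA-MB-468 after thinning. The 40 calls in MCF10A were the same in each draw, since thinning left the KRT19 counts of that library unchanged. With at least 20 counts in each library, which no KRT19 site of MCF10A had, 2 luminal sites differed.

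No basal site passed. Of 507 basal sites kept in both, 32 had an unadjusted p below 0.05, 28 of them in KRT15, and the lowest adjusted p was 0.165. Among the luminal genes other than KRT19, KRT18 had 45 of 105 sites with an unadjusted p below 0.05 and a lowest adjusted p of 0.0507, KRT8 57 of 204 and KRT7 46 of 467. Over all shared sites the share was 1.14%. The median coverage at the shared keratin sites was 58 in MCF10A against 267 in MDA-MB-468. Over shared sites the pooled difference, MDA-MB-468 minus MCF10A, was -0.14 percentage points for KRT17 and -0.25 for KRT5, whose intervals overlapped between the libraries. It was -0.57 for KRT7, -3.26 for KRT8, -4.71 for KRT18, -7.63 for KRT15 and -62.4 for KRT19, whose intervals did not overlap, and -0.27 for all shared sites.

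**Figure D5:**
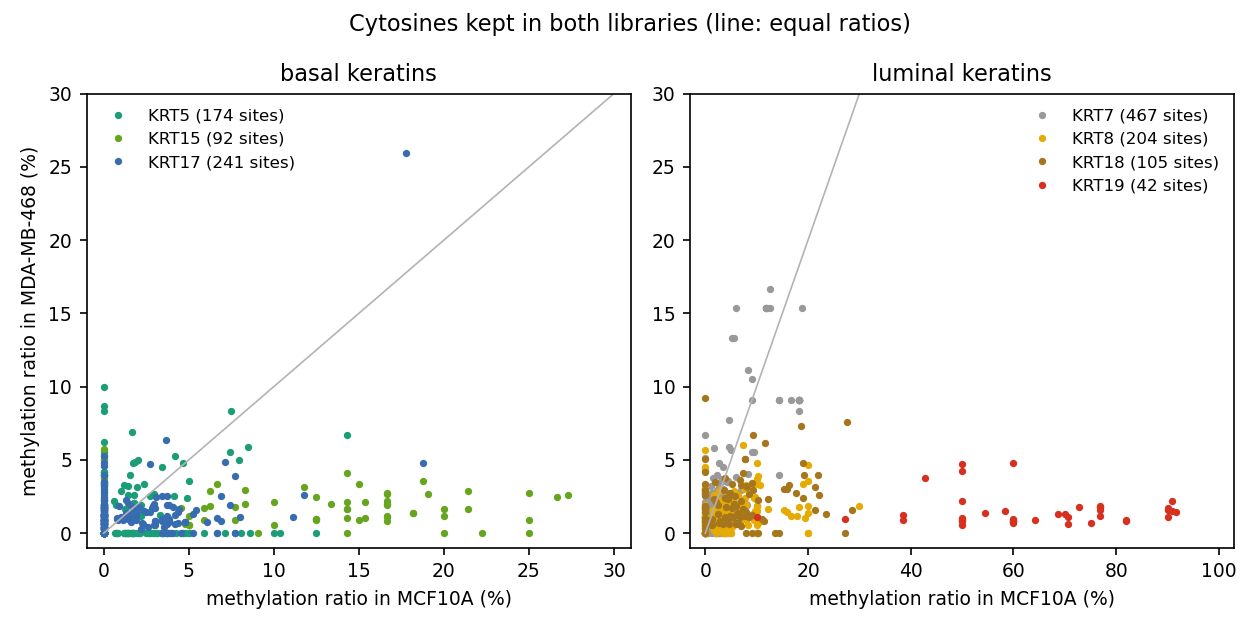
Methylation ratio in MCF10A (x axis, percent) against that in MDA-MB-468 (y axis, percent) for each cytosine kept in both, basal keratins on the left and luminal keratins on the right, where the x axes differ; the grey line marks equal ratios. KRT19 lies far to the right at 10% to 91.7% in MCF10A, and on the left the KRT17 site lies at 17.8% and 25.9%.

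Among the other keratins with at least 20 kept sites, KRT10 and KRT23 had intervals above those of the members in MDA-MB-468. Of 45 other keratin genes, 6 had kept sites in MCF10A with 4 calls in 361 sites (1.11%), and 7 in MDA-MB-468 with 17 calls in 1451 sites (1.17%). The members had 1.02% called in MDA-MB-468. Most of the 17 calls were in KRT10, a type I keratin of differentiating epidermis, with 11 of 57 sites and a pooled ratio of 5.63% (4.78 to 6.61), against 1 of 39 sites and 4.51% in MCF10A. KRT81, a type II hair keratin, had the deepest coverage, with means of 419 and 318, and stood at 1.47% and 1.20% with 3 and 1 calls. Those of KRT23 (3 calls of 274 sites), KRT4 (1 of 371) and KRT80 (0 of 396) came from MDA-MB-468, where KRT23 had a pooled ratio of 2.32% (2.08 to 2.59). In KRT34 (31 sites) and KRT80 (51 sites) in MCF10A and KRT86 (128 sites) in MDA-MB-468 there was no call. The 9 linker genes (DSP, PLEC, PPL, EVPL, JUP, PKP1, PKP2, PKP3, DST) had 59 calls in 7202 sites in MCF10A (0.819%) and 63 in 8778 in MDA-MB-468 (0.718%). These shares were close to those over all nuclear exonic sites, 0.8508% and 0.7415%. PLEC, the cross-linker plectin, held 54 of the 59 and 24 of the 63.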

How the data were processed

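The deposited tables hold, for each cytosine and strand, the counts of unconverted and converted reads that the authors obtained by RNA bisulfite sequencing (poly(A)+ RNA, 60 degrees, 8 hours). The labels name Trim Galore, Bismark and hg19, whereas the methods of the study name MeRanGs and MeRanCall (MeRanTK) for RNA, so the aligner is unsettled; versions are not given in the sources used here. The deposited sites all had at least 5 counts and, in the nucleus, fell on cytosines of GRCh37. Kept sites had at least 10 counts and lay on same-strand exons of GENCODE release 44 basic transcripts (lifted to GRCh37) or the mitochondrial chromosome. Tests were Fisher's exact tests with Benjamini-Hochberg adjustment over all kept or shared sites (scipy 1.17.1, numba 0.67.0), tested first on simulated data. Regions and positions refer to MANE Select transcripts. Pairing came from RNAplfold (ViennaRNA 2.7.2, window 300, span 150, 70 degrees), alignments from MAFFT 7.526. The named sites were those called in both libraries, the 5 highest per library at 20 or more counts, and the 5 largest differences. The members, lists and tests were chosen with earlier results of these data known. Alternatives were other coverage minimums, another test, ratio and structure filters, thinning, and, added after seeing the data, leaving out KRT19. The sequence of 1 stretch is not reported here.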

Additional observations from a re-analysis of the deposited data

Results flagged for a closer look

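Strand-opposite counts lay outside the comparisons and were almost fully unconverted over exons of 3 luminal keratins. Opposite to KRT19 the unconverted share was 99.03% of 1032 counts in MCF10A against 99.02% of 509 in MDA-MB-468, opposite to KRT7 97.6% of 621 and 97.3% of 224, and opposite to KRT8 96.9% of 128 in MCF10A. Over all sites opposite to a gene and outside every gene of their own strand, the share was 5.15% in MCF10A against 2.20% in MDA-MB-468, and 12.7% and 1.33% of such sites were over 90% unconverted. Their source was not tested.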

How the results depend on the processing

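The counts of called sites moved by more than 1.5 times under several settings. With at least 5 counts 246 luminal sites were called in MCF10A, and with at least 20 counts 32. A minimum ratio of 0.2 left 1 basal and 0 luminal calls in MDA-MB-468. The structure filter (pairing probability up to 0.5) left 1 basal and 20 luminal calls in MCF10A and 3 luminal calls in MDA-MB-468, and leaving out KRT19 left 22 and 8 luminal calls. Thinning to the lower coverage, at shared sites alone, left 1 basal and 1 luminal call in MDA-MB-468. Luminal sites lower in MDA-MB-468, 41 as reported, were 2 with at least 20 counts in each library, 15 without paired sites, 1 without KRT19 and 0 after thinning. Thinning leaves little power at the KRT19 sites.

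The pooled luminal ratio of MCF10A, 2.27%, was 2.87% with at least 5 counts, 2.04% with at least 20, 6.77% as a mean of sites and 2.09% without KRT19, and the basal ratio of MCF10A, 1.89%, was 1.67% with at least 20 counts and 2.31% as a mean of sites. In MDA-MB-468 the luminal ratio, 1.37%, was 1.76% as a mean of sites, 1.30% without paired sites, 1.32% over sites kept in both libraries and 1.26% without KRT19, and the basal ratio, 1.45%, was 1.93% without paired sites. The cause of these shifts was not tested. The other 54 of 80 values of the group counts and ratios stayed within 1.5 times or within the counting interval. The order of the groups in MDA-MB-468 did turn in the ratio, which was 1.45% basal and 1.37% luminal as pooled counts but 1.49% and 1.76% as a mean of sites, and in the number of calls with a minimum ratio of 0.2. Among values for single genes and sites, 172 stayed, 18 pooled ratios moved outside their counting interval and 13 single-site values were no longer past their threshold. Part of the 172 stayed by design, because settings that only left out other sites could not change them.

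Of the values of the sites called in both libraries under the alternatives, 46 of 49 from MCF10A and 44 of 53 from MDA-MB-468 stayed called. These counts overstate the stability. The structure filter, leaving out sites shared with another gene and leaving out KRT19 removed sites without repeating the test. A site that remained kept its call by design. KRT17 chr17:39776999 kept its call in both under each alternative run on single sites, those that only removed sites included, except a minimum ratio of 0.2 in MCF10A. No paired analysis was possible because each line has 1 library. Coverage limits what can be seen: KRT19 in MCF10A rests on 10 to 17 counts a site, and KRT14 could not be read. The intervals leave out the spread between libraries and the sharing of reads by neighbouring sites.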
